A study of Mus musculus with 24 samples.

Results

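Olfml3-/- and Olfml3+/+ bone marrow-derived macrophages (BMDMs) were compared in the absence of LPS. The comparison takes the 6 of 24 RNA-seq libraries that are BMDMs by title and PBS by treatment tag, 3 titled as controls (wild type) and 3 as *Olfml3* knockout. OLFML3 is a secreted glycoprotein with an olfactomedin domain. The other libraries of the series are RAW264.7 macrophages and LPS-treated cells, and of these only the 6 libraries of BMDMs with LPS are used below, to ask whether the knockout effect was the same after stimulation. The question of the study was what loss of OLFML3 does to macrophage function.

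The mice were C57BL/6 and the knockout was a global one made with CRISPR-Cas9, so that every cell of the animal lacks the gene and not the macrophages alone. Marrow of male mice 8 weeks old, flushed from the lower leg bones, was grown for 6 days in medium with 10% serum, 1% penicillin and streptomycin and 20% supernatant of L929 cells, a source of the macrophage growth factor M-CSF. All 4 BMDM groups share this culture. PBS is the buffer given in place of LPS, which was added at 100 ng/mL for 4 h. Neither the breeding of the wild-type mice nor the separation of the 3 libraries of a group into mice or cultures is given in the sources. The p-values therefore measure only the spread between libraries within the 4 BMDM groups, which may be technical. The genotype tag of the labels goes against the titles in 12 samples of the series, the 3 knockout PBS libraries among them. For genotype the titles were followed, and the targeted gene was used to check them.

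Type I interferons are secreted proteins that bind the receptor IFNAR1-IFNAR2 on the same or a neighbouring cell. The kinases JAK1 and TYK2 then phosphorylate STAT proteins, which join IRF9 to form the complex ISGF3 and bind the interferon-stimulated response element (ISRE) in the promoters of interferon-stimulated genes. Unstimulated macrophages hold a low, constant level of many of these genes, known as tonic interferon signalling, and the genes encode proteins that detect foreign nucleic acids, block virus replication and present antigen. BMDMs also divide in culture, because M-CSF is a mitogen. Genes of mitosis share promoter elements of their own, the cell cycle genes homology region (CHR) and the CCAAT box.

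Library totals of the 6 PBS libraries ran from 17746364 to 22873094 counts. Within a genotype, pairs of libraries differed by a chi-square of 1.76 to 2.68 per degree of freedom, and between genotypes by 16.3 to 21.1, so no library looked like a second copy of another. *Olfml3* was at 0.61, 0.53 and 0.65 FPKM (a fragment count divided by transcript length and library total) in wild-type libraries 1 to 3 and at 0.03, 0.01 and 0.01 FPKM in the knockout libraries. In counts these were 243 over the wild-type libraries and 6 over the knockout libraries, and each library stood where its title put it. The log2 fold change was -2.58 (SE 0.09, adjusted p = 2.33e-07, limma with Benjamini-Hochberg adjustment over all genes tested). Because 0.1 was added to each FPKM before taking logs, this understates the ratio of the means, which was 35.8. The deposited table places *Olfml3* on chromosome 3 from 103629538 to 103645317, on a build that could not be settled because the labels name mm10 but only 2.85% of the genes compared begin where GRCm38 has them. Among 38 other tested genes within 1000000 bases of *Olfml3*, 0 were called by limma, by edgeR and by DESeq2, where limma called 1.82% of all genes tested. At that share a count of 0 among 38 does not set the region apart from other genes. In addition, edgeR drops genes with few counts and did not test all of the 38. Of these 38, 6 had an unadjusted p under 0.05. The 15 of them at 1 FPKM or more had log2 fold changes between -0.14 (*Ptpn22*) and 0.36 (*Slc16a1*). *Slc16a1* passed the adjusted p (0.0107, limma) with its libraries apart, but not the fold.

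The cultures carried the markers of macrophages. All 14 macrophage markers on the list (among them *Adgre1*, *Csf1r*, *Cd68* and *Itgam*) were at 1 FPKM or more, with summed levels of 18793 to 19215 FPKM in wild type and 20550 to 21776 FPKM in the knockout, and 1 of them, *Fcgr1*, was called. Without *Lyz2*, the leading marker, the sums were 6673 to 6755 FPKM in wild type and 6374 to 6453 FPKM in the knockout, so the order of the genotypes turned. T cell markers summed to 7.73 to 8.67 FPKM in wild type and 6.49 to 6.87 FPKM in the knockout, nearly all from *Cd4*, and the defining genes Cd3d, Cd3e, Cd3g, Cd8a, Themis and Trac had 0 counts. The neutrophil markers Ly6g and Retnlg and the B cell factor *Pax5* had 0 counts as well. Other neutrophil and granulocyte precursor markers were detected. The 12 on that list, led by *Mmp8*, summed to 15.1 to 15.9 FPKM in wild type and 13.9 to 15.7 FPKM in the knockout, with none called. B cell markers, led by *Ighm*, summed to 37.5 to 42.8 FPKM in wild type and 49.8 to 52.8 FPKM in the knockout, with none called, and their part in the results below was not tested. Of 10 marker lists for other cell types and macrophages together, only the macrophage and osteoclast lists held a called gene, and in bulk libraries fewer cells of a type and less RNA per cell cannot be told apart.

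Across 26973 genes tested, 490 (1.82%) were differentially expressed genes (DEGs), which passed an adjusted p of 0.05 and differed at least 1.5-fold on the log2(FPKM + 0.1) scale. Knockout raised 243 (0.901% of genes tested) and lowered 247 (0.916%). The lowered genes moved further. At a fold change of at least 2 there were 139 lower and 46 higher genes, and at least 4, 45 lower and 14 higher. Among 11097 genes at 1 FPKM or more in either group, 324 (2.92%) were DEGs, of which 156 were higher (1.41%) and 168 lower (1.51%). Over all genes tested the median change was 0.010 on the log2 scale. Of the 490 DEGs, 489 had the 3 libraries of each genotype apart, 66 rested on fewer than 20 counts over the 6 libraries, and 387 were also called by edgeR on counts. Among the 168 lower DEGs at 1 FPKM and 100 counts or more, 100 belonged to the first 13 gene lists described below, from interferon ligands to MHC class I. Those lists were written with results of these data known. No share of all genes stands beside this number or the next, so both are descriptions. Among the 153 higher DEGs under the same limits, 58 were in the cell cycle list or under the terms cell division, chromosome segregation or DNA replication of the deposited table. With any process term that names the cell cycle, mitosis, the spindle, centrosome, kinetochore, cytokinesis or DNA repair added, a wider set chosen after the values were seen, the number was 92 (60.1%), against 14.1% of all genes at 1 FPKM or more and 4.17% of the lower DEGs.

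**Figure D1:**
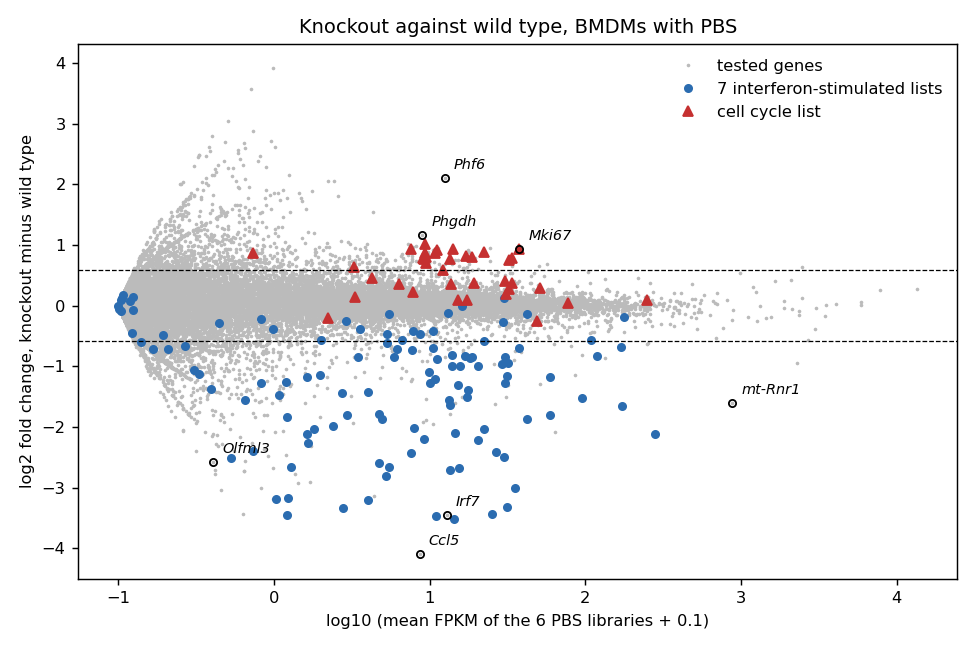
Log2 fold change of each tested gene (knockout minus wild type, log2(FPKM + 0.1)) against log10 of its mean FPKM plus 0.1 in the 6 PBS libraries. Grey points are all tested genes, blue circles the members of 7 interferon-stimulated lists, red triangles the cell cycle list, and dashed lines a fold change of 1.5. The blue points reach from 0.18 down to -3.52 and the red points lie between -0.25 and 1.01.

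The fall was centred on interferon-stimulated genes. Across 7 lists of them (ISG15 conjugation, the OAS family, IFIT and IFITM, other antiviral effectors, PYHIN proteins, GBP and IRG GTPases, and Schlafen proteins), 116 genes were tested, 82 (70.7%) were lower in the knockout against 0.916% of all genes tested, and 109 lay below 0. The count of higher members was 0 by limma, edgeR and DESeq2, and 0 rose at an unadjusted p under 0.05. The median log2 fold change was -1.13. Summed over the lists, expression was 3151, 3465 and 3038 FPKM in wild-type libraries 1 to 3 and 1373, 1408 and 1358 FPKM in the knockout libraries. Every wild-type sum lay above every knockout sum. Wild-type library 2 had the highest wild-type value for 74 of the 82 lower genes, and without it the count was again 82. All lists here were written with results of these data already known, so the counts describe the lists and give no independent evidence of a direction.

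With PBS, interferons themselves were at or near the limit of detection. Of 16 interferon genes, 3 had any count with PBS. *Ifnb1*, the interferon that macrophages make first, had 3 counts over the wild-type libraries and 0 over the knockout libraries. A count of 0 there allows up to 0.0646 FPKM, so no difference was detectable at this depth. *Ifnk* had 0 counts in wild type and 1 in the knockout, and *Ifnz* had 1 in each. Among the 6 interferon genes tested, 0 were called by limma, edgeR and DESeq2, and 1 had an unadjusted p under 0.05. *Ifna4*, *Ifna5* and *Ifna6* had 0 counts with PBS in both genotypes and entered through the LPS libraries, so they could not be called. Of the 6, edgeR, which drops genes with few counts, tested *Ifnb1* alone. The counts of 0 therefore say nothing on a difference in these genes.

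Receptors and kinases of the pathway were expressed at nearly equal levels in both genotypes. *Ifnar1*, a receptor chain, was at 36.1, 35.9 and 36.2 FPKM in wild type and 35.5, 36.8 and 36.4 FPKM in the knockout, and these values overlapped. Its log2 fold change was 0.01 (95% interval -0.11 to 0.13). *Ifnar2*, the other chain, had a log2 fold change of -0.11 (95% interval -0.20 to -0.02, adjusted p = 0.219). For the interferon-γ receptor the values were -0.04 (*Ifngr1*) and -0.02 (*Ifngr2*), and for the kinases -0.03 (*Jak1*) and -0.05 (*Tyk2*). None of these 6 genes was a DEG.

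Parts of ISGF3, in contrast, fell. *Stat2* was at 20.99, 23.56 and 20.34 FPKM in wild type and at 8.5, 8.86 and 8.81 FPKM in the knockout, 2.48-fold lower (log2 fold change -1.30, SE 0.06, adjusted p = 1.51e-06). *Irf9* fell 1.89-fold, from 12.5 ± 0.613 to 6.62 ± 0.346 FPKM (mean ± SD, n = 3 libraries per group here and below). The libraries of the genotypes were apart for both genes. Of 25 genes of the receptor and JAK-STAT list, 3 were lower and 2 were higher (against 0.916% and 0.901% of all genes tested), with a median of -0.04. The higher ones are feedback inhibitors of cytokine signalling: *Socs3* rose 1.80-fold, from 0.673 ± 0.0603 to 1.21 ± 0.111 FPKM, and *Cish* rose as well. *Cish* rested on 21 and 50 counts, and its log2 fold change of 0.59 fell under the threshold without knockout library 3 (0.52) or wild-type library 2 (0.55).

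Interferon regulatory factors (IRFs) fell in 2 of 12 cases (against 0.916% of all genes tested), and *Irf9* is 1 of them. *Irf7*, the factor that amplifies interferon production and is itself interferon-induced, was at 21.9, 27.5 and 21.2 FPKM in wild type and at 2.05, 2.13 and 1.97 FPKM in the knockout. No library of one genotype came near the other. The difference was 11.5-fold (log2 fold change -3.45, SE 0.09, adjusted p = 6.85e-08). *Irf3*, which acts upstream of interferon induction and is not induced by it, was at 8.54 ± 0.778 and 9.13 ± 0.269 FPKM with overlapping libraries. *Irf1*, *Irf5* and *Irf8* had log2 fold changes of -0.13, -0.20 and -0.26, and the last 2 passed the adjusted p (0.0414 and 0.0291) but not the fold.

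**Figure D2:**
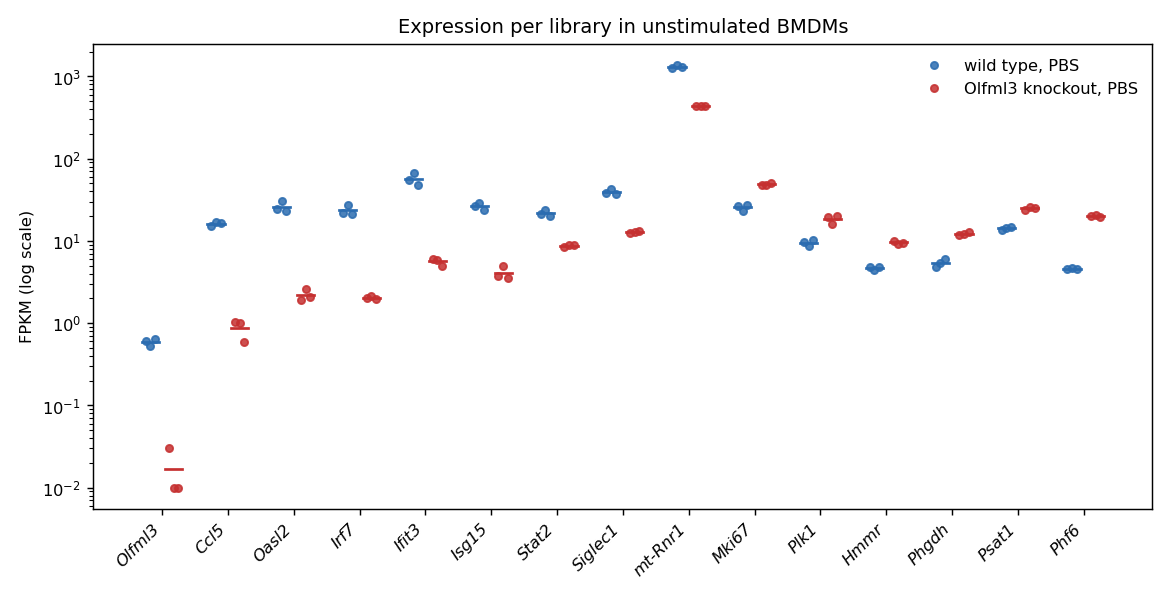
Expression of 15 genes in each of the 6 PBS libraries, in FPKM on a log axis. Blue points are the 3 wild-type libraries, red points the 3 *Olfml3* knockout libraries, and bars the group means. For each gene shown the genotypes do not overlap, with *Ccl5*, *Oasl2*, *Irf7*, *Ifit3*, *Isg15*, *Stat2* and *Siglec1* lower in the knockout and *Mki67*, *Plk1*, *Hmmr*, *Phgdh*, *Psat1* and *Phf6* higher.

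Promoters were searched for the ISRE. Windows of 300 bases (250 before and 50 after the start of the gene) were taken from RefSeq on GRCm38.p6 for 14075 tested genes and searched on both strands for the core GAAA, any 2 bases, GAAA. It was present in 33.1% of lower DEGs (55 of 166 with a window), in 4.82% of higher DEGs (8 of 166) and in 3.90% of all tested genes with a window. In all windows of the table the share was 3.99%. Of the 15 largest falls, 10 had a window and 6 of these held the core. Among the 7 interferon-stimulated lists it was present in 51.5% of lower DEGs (34 of 66) and in 38.5% of the members that were not DEGs (10 of 26). Stretches of 50 bases around the core (in capitals) are shown 5′ to 3′ in the sense of the gene for an OAS gene, the ISG15 gene, an IFIT gene, a pair of PYHIN genes whose stretches are nearly alike, a part of ISGF3 and the light chain of MHC class I.
*Oas3*, chr5:120777705-120777754, minus strand: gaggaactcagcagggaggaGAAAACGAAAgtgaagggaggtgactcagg
*Isg15*, chr4:156200861-156200910, minus strand: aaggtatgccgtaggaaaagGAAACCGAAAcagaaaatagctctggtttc
*Ifit3*, chr19:34583387-34583436, plus strand: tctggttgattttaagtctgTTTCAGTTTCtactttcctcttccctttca
*Ifi213*, chr1:173599316-173599365, minus strand: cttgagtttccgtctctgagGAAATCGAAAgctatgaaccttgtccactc
*Ifi206*, chr1:173491329-173491378, minus strand: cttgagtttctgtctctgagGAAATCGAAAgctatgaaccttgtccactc
*Stat2*, chr10:128270256-128270305, plus strand: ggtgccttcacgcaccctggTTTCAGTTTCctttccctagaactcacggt
*B2m*, chr2:122147528-122147577, plus strand: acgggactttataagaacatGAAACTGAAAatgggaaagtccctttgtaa
In *Ifit3* and *Stat2* the core lies on the opposite strand and reads TTTC, any 2 bases, TTTC. The first capital lies 75 bases before the start of *Oas3*, 72 before *Isg15*, 122 before *Ifit3*, 73 before *Ifi213*, 40 before *Ifi206*, 222 before *Stat2* and 139 before *B2m*. A second interferon motif, the gamma-activated site GAS (TTC, any 3 bases, GAA), was in 15.7% of lower DEGs, 10.2% of higher DEGs and 8.53% of all. A match is a description of the window and not a measured binding site.

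The ISG15 system attaches a ubiquitin-like tag to proteins, and its 5 tested members were all lower. *Isg15*, the tag, was at 26.40, 28.86 and 23.98 FPKM in wild type and at 3.73, 4.91 and 3.53 FPKM in the knockout, 6.51-fold lower (log2 fold change -2.68, SE 0.12). *Usp18*, which removes the tag and also restrains the interferon receptor, fell 6.45-fold. The enzymes that load and transfer the tag fell less, *Ube2l6* 1.95-fold, *Herc6* 1.82-fold and *Uba7* 1.66-fold. In all 5 the genotypes were apart.

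OAS proteins sense double-stranded RNA, and 8 of 12 tested genes of this group were lower, with a median log2 fold change of -1.61. *Oasl2* was at 24.7, 30.3 and 23.5 FPKM in wild type and 1.91, 2.59 and 2.08 FPKM in the knockout (11.9-fold, log2 fold change -3.52, adjusted p = 2.28e-07). *Oas3* fell 11.7-fold, *Oasl1* 16.4-fold and *Oas2* 6.74-fold. *Oas1g* fell 10.2-fold and *Oas1a* 4.16-fold, but these 2 are close copies and reads may be split between them.

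IFIT proteins bind foreign RNA and IFITM proteins block virus entry. Among 13 tested, 7 were lower and the median was -1.26. *Ifit3* went from 57.2 ± 9.60 to 5.65 ± 0.552 FPKM (10.1-fold), *Ifit2* from 50.7 ± 5.25 to 8.89 ± 0.0808 FPKM (5.70-fold) and *Ifit1* fell 4.73-fold. *Ifit3b*, a near copy of *Ifit3*, fell as well and shares its uncertainty. *Ifitm3*, the most abundant of them in wild type, was at 436, 509 and 419 FPKM in wild type and 106, 104 and 105 FPKM in the knockout (4.32-fold). *Ifitm2* stayed at a log2 fold change of -0.19 and was not a DEG.

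Of 46 other antiviral effectors, 34 were lower, with a median of -1.04. *Rtp4*, a chaperone induced by interferon, was at 43.4, 53.3 and 41.5 FPKM in wild type and 4.64, 4.58 and 3.28 FPKM in the knockout (log2 fold change -3.44). *Ifi44* fell 14.5-fold and *Ifi27l2a* 8.11-fold. The GTPase gene *Mx1* fell 5.55-fold, from 12.7 ± 1.60 to 2.29 ± 0.234 FPKM. Smaller falls were seen for *Rsad2* (viperin, 4.70-fold), *Bst2* (tetherin, which holds budding virus at the cell surface, 2.88-fold) and *Eif2ak2* (the RNA-activated kinase PKR, 1.84-fold). The genotypes were apart for each of these 7 genes. *Apobec3*, a cytidine deaminase, and *Zc3hav1*, an RNA-binding protein that targets viral RNA, had log2 fold changes of -0.13 and -0.27 and were not DEGs.

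PYHIN proteins bind DNA, and 10 of 13 tested were lower, with the lowest median of the lists at -1.81. *Ifi213* was at 2.10, 2.59 and 1.73 FPKM in wild type and 0.12, 0.12 and 0.07 FPKM in the knockout, with 968 and 45 counts. *Ifi206* fell 12.4-fold, *Ifi209* 6.70-fold, *Ifi211* 5.31-fold and *Ifi208* 8.34-fold. These genes are recent duplicates, so that counts of single members are uncertain. *Aim2*, the member that forms an inflammasome, had a log2 fold change of -0.12 and was not a DEG.

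Guanylate-binding proteins (GBPs) and immunity-related GTPases (IRGs) attack the vacuoles of intracellular pathogens, and 13 of 19 were lower, with a median of -1.0. *Tgtp2* fell 4.55-fold and *Ifi47* 3.13-fold. *Irgm1*, a regulator of the other IRGs, went from 19.8 ± 1.72 to 6.66 ± 0.448 FPKM (2.97-fold), and *Iigp1* from 1.47 ± 0.170 to 0.473 ± 0.125 FPKM (3.11-fold). *Gbp9* fell 2.45-fold and *Gbp2* 2.02-fold, while *Gbp5* had a log2 fold change of -0.25 and was not a DEG. Schlafen genes, which include inhibitors of translation and cell growth, were lower in 5 of 8 cases with a median of -1.03. *Slfn5* went from 64.02, 71.95 and 61.68 FPKM to 18, 19.2 and 16.71 FPKM (3.67-fold), *Slfn8* fell 2.64-fold and *Slfn2* 1.60-fold.

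**Figure D3:**
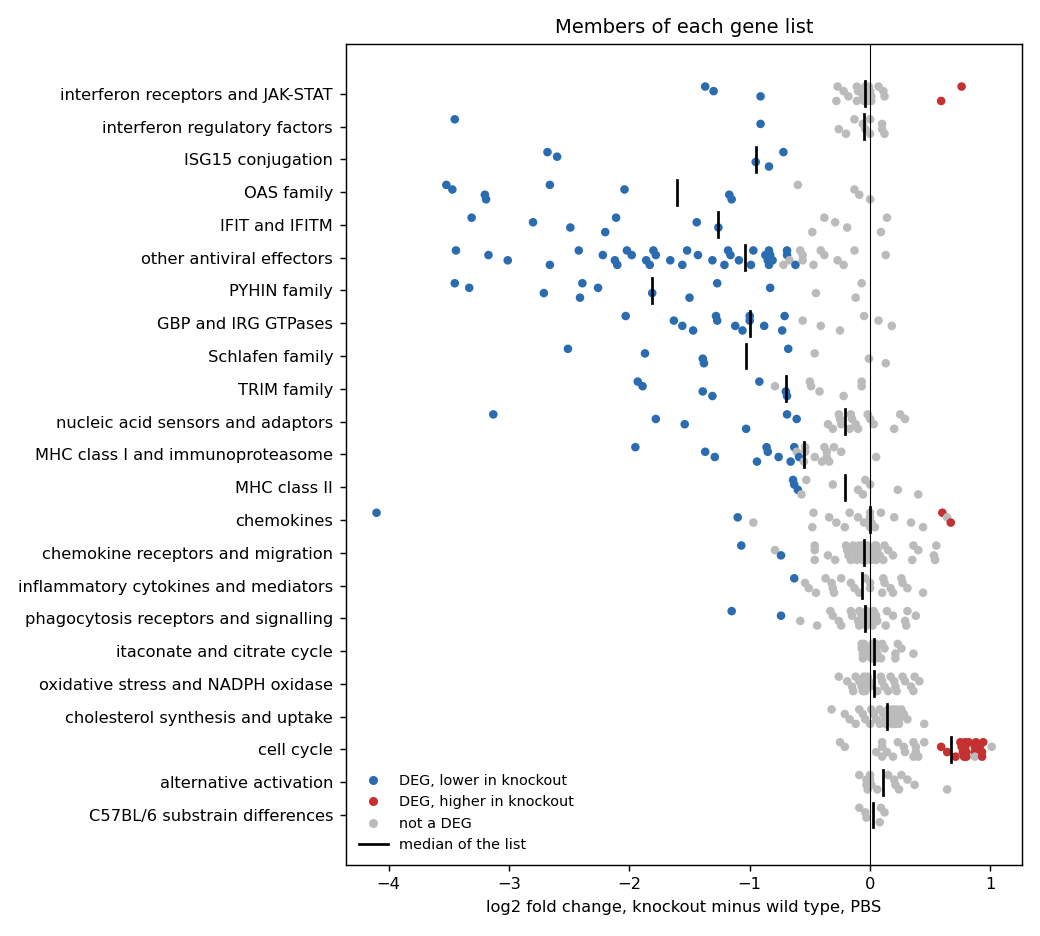
Log2 fold change (knockout minus wild type, PBS) of every tested member of 23 gene lists. Each point is a gene, blue for DEGs lower in the knockout, red for DEGs higher and grey for the rest, and the black bar is the median of the list. Medians run from -1.81 for PYHIN proteins to 0.68 for the cell cycle.

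The TRIM family and the sensors of nucleic acids moved in part. In the TRIM family, 7 of 14 members on the list were lower (median -0.69), led by the copies *Trim30c* (4.03-fold), *Trim30d* (3.75-fold) and *Trim30a*, which went from 45.1 ± 2.00 to 18.1 ± 0.337 FPKM (2.50-fold). *Trim25* and *Trim56*, which act on RNA and DNA sensing, had log2 fold changes of -0.22 and -0.07 and were not DEGs. Of 22 sensors and adaptors, 6 were lower (median -0.20). Those 6 are known to be induced by interferon: *Zbp1* (9.80-fold), a sensor of Z-form nucleic acid, the RNA helicases *Dhx58* (3.49-fold), *Ddx58* (2.97-fold) and *Ifih1* (2.07-fold), the dNTPase gene *Samhd1* (1.61-fold) and *Tlr3*, with a log2 fold change of -0.61. The DNA sensor gene *Cgas* was at 6.73 ± 0.562 and 6.70 ± 0.329 FPKM and the RNA adaptor gene *Mavs* at 15.2 ± 0.718 and 15.6 ± 0.570 FPKM, both with overlapping libraries. *Sting1*, the adaptor of cGAS, fell by 0.25 on the log2 scale, which passed the adjusted p (0.0411) but not the fold.

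MHC class I genes were lower over a wide range of levels. The largest falls were those of *H2-Q6* and *H2-T24*. *H2-T24* went from 16.6 ± 1.19 to 4.23 ± 0.108 FPKM (3.93-fold). *H2-Q6* fell 4.17-fold on 56 and 12 counts, and its adjusted p of 0.0428 rose to between 0.0646 and 0.131 when any 1 of the 6 libraries was left out. *B2m*, the light chain of every class I molecule, was at 2929, 3158 and 2967 FPKM in wild type and at 1586, 1584 and 1560 FPKM in the knockout (1.91-fold, log2 fold change -0.94, adjusted p = 1.54e-05). The genotypes lay far apart against the spread of the libraries. *Nlrc5*, the transactivator of class I genes, fell 1.85-fold, the peptide transporter gene *Tap1* 1.82-fold and the class I genes *H2-T23* 2.45-fold and *H2-K1* 1.55-fold. *H2-D1* fell by 0.54 on the log2 scale, just short of the fold. Of 23 genes of the list, 10 were DEGs, 19 passed the adjusted p alone (4.14% of all genes tested did, in either direction), and the median was -0.55. For MHC class II, 3 of 12 genes were lower (against 0.916% of all genes tested), the invariant chain *Cd74* 1.56-fold, *H2-Aa* 1.55-fold and *H2-Ab1* 1.52-fold. *H2-Ab1* lost its call by the fold without knockout library 1 (log2 fold change -0.55) or wild-type library 2 (-0.57). *Ciita*, the master regulator of class II, was at 0.500 ± 0.0721 and 0.383 ± 0.0603 FPKM with overlapping libraries.

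Chemokines held the largest fall on this scale of all genes tested. *Ccl5* (RANTES), which draws T cells and monocytes, was at 15.21, 16.95 and 16.37 FPKM in wild type and at 1.03, 1.00 and 0.59 FPKM in the knockout. The difference was 18.5-fold, on 1026 and 53 counts (log2 fold change -4.10, SE 0.16, adjusted p = 6.97e-07), and the highest knockout library was far under the lowest wild-type library. *Ccl12* fell 2.23-fold. *Cxcl14* rose 1.60-fold, from 5.69 ± 0.193 to 9.13 ± 0.460 FPKM. Of 23 chemokines tested, 2 were higher and 2 lower (against 0.901% and 0.916% of all genes tested) and the median was -0.00. *Ccl2* (MCP-1), another monocyte attractant, was at 110, 121 and 111 FPKM in wild type and 146, 158 and 159 FPKM in the knockout. These libraries were apart (adjusted p = 0.0037), but the 1.36-fold difference did not reach the threshold. Among 45 chemokine receptors and migration genes 2 were lower and 0 higher by limma, against 0.916% and 0.901% of all genes tested. With edgeR and with DESeq2, 2 were lower and 1 higher. At the adjusted p alone (limma) 6 were lower and 3 higher, where 4.14% of all genes tested passed in either direction. *Ccr3*, a receptor of eotaxins, fell 1.68-fold.

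For phagocytosis, 2 of 30 genes were lower by limma and 3 by edgeR and by DESeq2, and 0 were higher by any of them. Of all genes tested limma called 0.916% lower and 0.901% higher, so 0 higher among 30 does not set the list apart. At an unadjusted p under 0.05, 9 fell and 3 rose, with no share of all genes beside these counts. Both genes called by limma encode Fcγ receptors. *Fcgr1*, the high-affinity receptor for IgG, was at 115, 129 and 111 FPKM in wild type and 54.3, 54.9 and 51.0 FPKM in the knockout (2.22-fold), and *Fcgr4* fell 1.67-fold. *Fcgr3*, the low-affinity receptor, was at 237 ± 2.42 and 239 ± 5.74 FPKM, and its libraries overlapped. *Siglec1* (CD169), a sialic acid receptor of tissue macrophages known to be induced by interferon, was no member of the list and fell 3.09-fold, from 38.64, 42.62 and 37.74 FPKM to 12.61, 12.91 and 13.04 FPKM. It was chosen after its values were seen.

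Of 24 genes for inflammatory cytokines and mediators 1 was lower, where 0.916% of all genes tested were. It was *Il10*, with 104 and 61 counts and a log2 fold change of -0.63 (adjusted p = 0.03). Leaving out a single library took its adjusted p above 0.05 for 4 of the 6 libraries, with values between 0.0983 and 0.109. *Tnf* was at 15.9 ± 1.08 and 19.1 ± 2.29 FPKM, *Il1b* at 1.26 ± 0.211 and 1.44 ± 0.146 FPKM, and both overlapped. *Il6* had 5 counts in each genotype and *Nos2* 9 and 16, and no difference was detectable at this depth.

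Genes of itaconate synthesis and the citrate cycle, a pathway the study examined, held 0 DEGs among 27 tested by limma, edgeR and DESeq2, and 4 rose at an unadjusted p under 0.05. Their log2 fold changes lay between -0.07 and 0.36. *Acod1* (IRG1), the enzyme that makes itaconate, was at 1.20, 1.39 and 1.27 FPKM in wild type and 1.39, 1.67 and 2.02 FPKM in the knockout. The lowest knockout library reached the highest wild-type library, and the log2 fold change was 0.36 (95% interval 0.11 to 0.61, adjusted p = 0.137). *Aifm1*, a mitochondrial flavoprotein that the study linked to IRG1, had a log2 fold change of -0.06 (95% interval -0.19 to 0.07). Oxidative stress and NADPH oxidase genes held 0 DEGs among 30 by the same 3 tools, with 10 rising and 3 falling at an unadjusted p under 0.05. Cholesterol synthesis and uptake held 0 of 32, with 15 rising and 2 falling, and alternative activation 0 of 16, with 3 rising. Of all genes tested 1.82% were DEGs, so a count of 0 in lists of this size does not set them apart from other genes. No share of all genes stands beside the counts at an unadjusted p. Of 10 listed genes whose expression differs between C57BL/6 substrains, 6 were tested and 3 were at 1 FPKM or more. Of the 6, 0 were called by limma, edgeR and DESeq2 or passed an unadjusted p of 0.05.

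**Figure D4:**
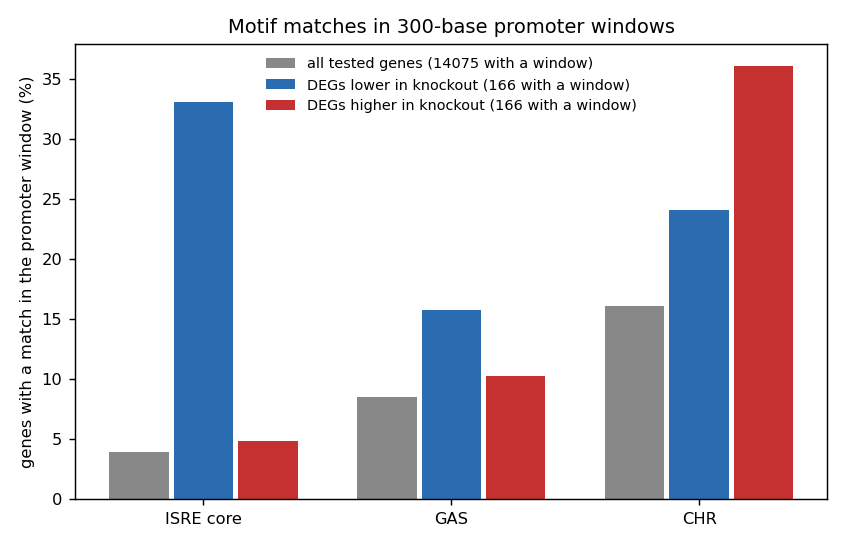
Share of genes (%) whose 300-base RefSeq promoter window holds each motif at least once, for all tested genes with a window (grey, 14075), lower DEGs (blue, 166) and higher DEGs (red, 166). The ISRE core is in 33.1% of lower DEGs against 3.90% of all, and the CHR in 36.1% of higher DEGs against 16.1% of all.

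Genes of cell division were prominent among those that rose. Of 38 genes in the cell cycle list, 19 were higher against 0.901% of all genes tested, and the median log2 fold change was 0.68. The count of lower members was 0 by limma, edgeR and DESeq2, and 2 fell at an unadjusted p under 0.05. *Mki67*, the proliferation marker Ki-67, was at 26.9, 23.2 and 27.5 FPKM in wild type and at 47.8, 48.4 and 51.1 FPKM in the knockout (1.90-fold, log2 fold change 0.93, SE 0.12, adjusted p = 0.00156). Every knockout library lay above every wild-type library, as for all 19 genes. Wild-type library 2, which was highest for most interferon-stimulated genes, was the lowest wild-type library for 15 of these 19, and without it 18 were called.

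The counts differed by role in the cycle, a difference that was not tested. Split by role after the values were seen, 14 of 15 mitosis genes were higher, with a median of 0.82, against 2 of 11 DNA replication genes (median 0.38), 1 of 7 cyclins and kinases of the first gap phase (median 0.19) and 1 of 4 kinase inhibitors. *Ccnb1*, the cyclin of mitotic entry, went from 7.73 ± 0.523 to 14.5 ± 0.0723 FPKM (1.88-fold), and its kinase gene *Cdk1* rose 1.71-fold. *Plk1*, a kinase of spindle assembly, was at 9.64, 8.79 and 10.2 FPKM in wild type and 19.6, 15.9 and 19.9 FPKM in the knockout (1.93-fold). *Ccna2* rose 1.85-fold, *Anln*, which builds the cleavage furrow, 1.92-fold, the spindle checkpoint kinase gene *Bub1* 1.74-fold and the topoisomerase gene *Top2a* 1.73-fold. *Cdc20*, an activator of the anaphase-promoting complex, had the largest estimate at 1.01 but an SE of 0.41 (adjusted p = 0.277). As for every gene, this SE takes in the spread within all 12 BMDM libraries, those with LPS among them. On counts, edgeR called *Cdc20* (adjusted p = 1.49e-07).

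Single replication genes had smaller values. *Rrm2*, a subunit of ribonucleotide reductase, rose 1.68-fold and *Tyms*, which makes thymidylate, 1.58-fold. The helicase gene *Mcm2* was 1.28-fold higher (adjusted p = 0.0014), apart but under the fold. *Pcna*, the sliding clamp, was at 240 ± 6.78 and 258 ± 7.13 FPKM (adjusted p = 0.405). Among cyclins of the first gap phase, *Ccne2* rose 1.51-fold, and *Ccnd1*, which M-CSF induces, was at 76.2 ± 2.27 and 79.0 ± 0.575 FPKM with overlapping libraries. The inhibitor gene *Cdkn2c* (p18) rose 1.74-fold, and *Cdkn1a* (p21) fell by 0.25 on the log2 scale (adjusted p = 0.0127), under the fold.

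Outside the list, the 15 largest rises at 1 FPKM and 100 counts or more included further genes of the spindle, the kinetochore and mitotic entry. *Hmmr*, which binds spindle microtubules, was at 4.80, 4.46 and 4.86 FPKM in wild type and 10.1, 9.31 and 9.55 FPKM in the knockout (2.05-fold). *Prc1*, which bundles microtubules at the midzone, rose 2.00-fold, the kinetochore genes *Cenpm* 2.00-fold and *Cenpf* 1.98-fold, *Cdca3*, which triggers mitotic entry, 1.94-fold, and *Depdc1b*, a gene of mitotic cell detachment, 2.03-fold. The genotypes were apart in each of them, which the rule for the largest rises required. By Gene Ontology terms in the deposited table, taken after the values were seen, cell division held 42 higher and 1 lower DEG among 433 tested, chromosome segregation 17 higher among 106, and DNA replication 4 higher and 1 lower among 101. Of all genes tested 0.901% were higher and 0.916% lower.

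Promoters of the higher genes carried the motifs of division genes more often than those of all genes. The CHR core TTTGAA, on either strand, was in 36.1% of higher DEGs with a window, 24.1% of lower DEGs and 16.1% of all tested genes. The CCAAT box (CCAAT on either strand) was in 62.7%, 42.8% and 42.1%. The CHR core was not particular to the higher genes. In the 7 interferon-stimulated lists it was in 33.3% of lower DEGs (22 of 66) and 26.9% of the members that were not DEGs (7 of 26). For the CCAAT box these shares were 31.8% and 42.3%. In the 15 higher genes of the cell cycle list with a window, 9 held the CHR core and 12 the CCAAT box. Both motifs were added after values had been seen. Stretches around the CHR core (in capitals, 20 bases on each side) are shown for the proliferation marker and for the mitotic kinase, which hold 2 each.
*Mki67*, chr7:135716470-135716515, minus strand: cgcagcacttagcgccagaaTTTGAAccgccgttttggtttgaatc
*Mki67*, chr7:135716452-135716497, minus strand: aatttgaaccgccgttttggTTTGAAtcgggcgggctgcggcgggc
*Cdk1*, chr10:69352958-69353003, minus strand: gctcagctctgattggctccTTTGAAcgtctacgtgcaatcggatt
*Cdk1*, chr10:69352902-69352947, minus strand: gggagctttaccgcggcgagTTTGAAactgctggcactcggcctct
These lie 116 and 98 bases before the start of *Mki67*, in stretches that overlap, and 71 and 15 before the start of *Cdk1*.

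Serine synthesis and amino acid uptake formed a further group, assembled after the values were seen. Of 20 genes, 6 were higher and 1 lower, with a median of 0.49, where 0.901% and 0.916% of all genes tested were. *Phgdh*, the first enzyme of serine synthesis, was at 4.86, 5.44 and 5.96 FPKM in wild type and 11.86, 11.99 and 12.99 FPKM in the knockout (2.27-fold, log2 fold change 1.17, SE 0.09, adjusted p = 5.63e-05). *Psat1*, the next enzyme, rose 1.73-fold, and *Shmt2*, which turns serine into glycine in mitochondria, 1.60-fold. Asparagine synthetase (*Asns*) rose 1.70-fold, the amino acid transporter gene *Slc7a5* 1.74-fold and the proline synthesis gene *Aldh18a1* 1.51-fold. The genotypes were apart in these 6 genes. *Atf4*, the factor that drives this programme under amino acid shortage, was 1.32-fold higher (adjusted p = 9.65e-04, under the fold), and *Ddit3* (CHOP), another of its targets, was lower, at 22.3 ± 1.98 and 14.4 ± 0.408 FPKM (1.55-fold).

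The largest rise among genes at 1 FPKM and 100 counts or more was that of *Phf6*, a chromatin-associated protein encoded on chromosome X. It was at 4.50, 4.70 and 4.58 FPKM in wild type and at 20.2, 20.9 and 19.4 FPKM in the knockout, on 2107 and 8709 counts. This 4.39-fold difference (log2 fold change 2.11, SE 0.05, adjusted p = 2.57e-08) was many times the spread in either genotype. Its neighbours at 1 FPKM or more did not share it. Of 19 other genes tested within 1000000 bases, 0 were called by limma, edgeR and DESeq2, where limma called 1.82% of all genes tested. At that share a count of 0 among 19 does not set them apart, and edgeR did not test all of them. An unadjusted p under 0.05 was seen for 2 of them, and the 8 at 1 FPKM or more lay between -0.13 and 0.23. The next largest rise, that of *3830403N18Rik*, also lay on chromosome X, from 55181932 to 55198858, where *Phf6* runs from 52001143 to 52045820. It was at 0.533 ± 0.144 and 2.17 ± 0.426 FPKM, on 36 and 139 counts (log2 fold change 1.85, and 2.09 with LPS). *Trav14d-3-dv8*, a T cell receptor variable segment, was also among the largest rises, at 2.12 ± 0.288 and 6.34 ± 0.601 FPKM, on 64 and 179 counts. Trac, the constant segment, had 0 counts. The call of *Trav14d-3-dv8* was lost when any 1 of the 6 libraries was left out (adjusted p 0.0524 to 0.0808).

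Mitochondrial transcripts moved in opposite directions. The ribosomal RNA *mt-Rnr1* was at 1265, 1373 and 1321 FPKM in wild type and at 438, 436 and 435 FPKM in the knockout (3.02-fold, log2 fold change -1.60, adjusted p = 5.62e-07). The other ribosomal RNA, *mt-Rnr2*, was at 588 ± 4.46 and 451 ± 3.77 FPKM, 1.30-fold lower and under the fold. The 13 mRNAs, chosen as a group after the values were seen, summed to 15038 to 15550 FPKM in wild type and 19670 to 19831 FPKM in the knockout. Among them *mt-Cytb* rose 1.56-fold, the others were not DEGs, and the median was 0.37. Mitochondrial genes took 2.23% to 2.29% of all counts in wild type and 2.72% to 2.74% in the knockout. The libraries were made from poly(A) RNA.

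With LPS the interferon-stimulated genes differed less between genotypes, while the median of the cell cycle list was the same as with PBS. The PBS and LPS comparisons share no library, and with LPS 4.76% of genes tested were DEGs. Across all genes, 789 (2.93%) had a knockout effect that differed between LPS and PBS (interaction term, adjusted p under 0.05 and a ratio of at least 1.5), and among the 490 PBS DEGs there were 193, of which 144 were lower with PBS. For the 82 lower interferon-stimulated DEGs the count was 66. The PBS effect is part of both the choice of these DEGs and the interaction term, so the counts of 193 and 66 are descriptions. The 7 lists held 33 genes lower with LPS, against 1.53% of all genes tested, and their median moved from -1.13 to -0.36. The cell cycle list held 22 higher genes with LPS, against 3.23% of all genes tested, with a median of 0.68 in both conditions. Of the 490 DEGs, 175 were called in the same direction with LPS, 2 in the other and 313 not at all.

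Values of named genes with LPS follow. *Ccl5* was at 1452 and 1500 FPKM with LPS (wild type and knockout means), so that its log2 fold change went from -4.10 to 0.05, with an interaction of 4.15 (adjusted p = 2.13e-05). *Irf7* rose to 192 and 131 FPKM, with an interaction of 2.90, and *Isg15* to 758 and 678 FPKM, with an interaction of 2.53. Some genes differed at least as much with LPS. *Iigp1* was at 220 and 46.7 FPKM (interaction -0.76, adjusted p = 0.068) and *Fgl2*, a prothrombinase gene induced by interferon, at 166 and 56.7 FPKM (interaction -0.46, adjusted p = 0.0152, under the fold). *Gbp4* was at 41.9 and 13.4 FPKM (interaction -0.58, adjusted p = 0.096). Of the 6 interferon genes tested, 2 were lower with LPS and 0 higher, against 1.53% and 3.23% of all genes tested. *Ifnb1* was at 6.21 and 2.53 FPKM (limma log2 fold change -1.25, adjusted p = 0.00652). Its interaction did not pass the threshold (adjusted p = 0.382). *Ifna5* had 35 counts in wild type and 0 in the knockout. *Phf6* was at nearly one level with LPS, at 12.6 and 12.4 FPKM, with an interaction of -2.13 (adjusted p = 4.59e-07). *Phgdh* (4.63 and 11.1 FPKM), *Mki67* (8.10 and 17.1 FPKM) and *mt-Rnr1* (1088 and 439 FPKM) kept their direction, and their interactions did not pass the threshold (adjusted p = 0.77, 0.636 and 0.0937).

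**Figure D5:**
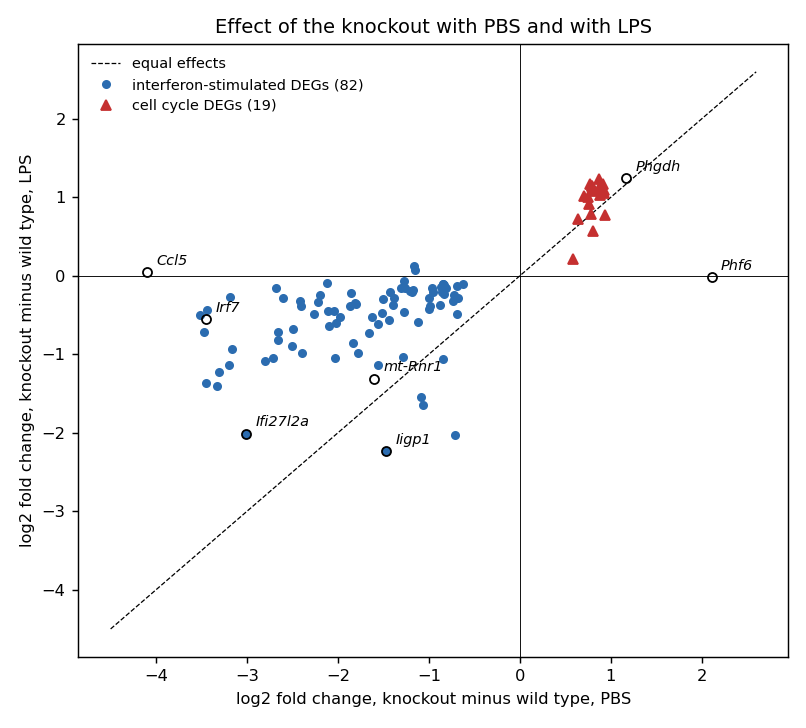
Log2 fold change (knockout minus wild type) with LPS against that with PBS, for 82 interferon-stimulated DEGs (blue circles), 19 cell cycle DEGs (red triangles) and named genes (open circles). The dashed line marks equal effects. Most blue points lie above it and nearer to 0 on the LPS axis, the median of the 7 lists being -1.13 with PBS and -0.36 with LPS, and the red points lie about the line.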

How the data were processed

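RNA-seq libraries of BMDMs were prepared by the authors from poly(A) RNA and sequenced as paired reads of 150 bases. The authors deposited a table of raw read counts and of FPKM per gene. Per the labels the reads were placed on mm10, while aligner, counting tool and strand setting were not stated, so paralogs and overlapping genes are uncertain. The deposited FPKM followed from the counts and gene lengths within 1% for 99.51% of 123096 values over 50 counts. Columns of the authors' own annotation were used for gene names and Gene Ontology terms only.

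Knockout and wild-type libraries with PBS were compared with limma 3.58.1 (R 4.3.3) on log2(FPKM + 0.1), in a single fit of 4 group means to the 12 BMDM libraries, over 26973 genes above 0 FPKM in at least 1 library. Genes were called at 0.05 after Benjamini-Hochberg adjustment, given a difference of at least 1.5-fold. The interaction term tested whether the effect differed with LPS. Fold changes in the text are ratios of mean FPKM. On simulated data with 200 changed genes, limma found 85% of genes changed 1.75-fold and 97% of genes changed 3-fold. It made 19 false calls beside these 200, over 25793 genes, and 10 calls where no change was simulated. The shares were 95% and 100% for edgeR, with 5 false calls, and 90% and 98% for DESeq2, with 0. Both made 0 calls where no change was simulated. The shares were not split by expression level, so they need not hold for genes with few counts. Alternatives were edgeR 4.0.16 and DESeq2 1.42.0 on counts, other pseudocounts, filters, scalings and sets of libraries.

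The named genes were *Olfml3*, the 15 largest falls and rises among DEGs at 1 FPKM and 100 counts with groups apart, the 5 largest changes in each list, any interferon ligand, receptor, JAK-STAT or IRF gene, markers, neighbours and the 5 largest interactions. Other list members were named after their values were seen. The comparison, the rules and all gene lists were chosen with earlier results of these data known. Intervals and floors (3 counts) cover the error stated beside them only. Results of some genes are not reported here.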

Additional observations from a re-analysis of the deposited data

Results flagged for a closer look

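A difference between the knockout effect with LPS and that with PBS was found for 193 of the 490 DEGs of the PBS comparison (limma interaction term with Benjamini-Hochberg adjustment). The largest on the log2 scale (LPS minus PBS) were those of *Ccl5* (4.15), *Oasl2* (3.02), *Rtp4* (3.00), *Oasl1* (2.91) and *Irf7* (2.90), all lower in the knockout with PBS. Among the genes that were higher with PBS, the interactions of *Phf6* (-2.13) and *Depdc1b* (-0.67) were tested by the same term. *Depdc1b* was near the limit of detection with LPS, at 0.00333 and 0.0267 FPKM. The DEGs were chosen by the PBS effect, which is also part of the interaction, so the count of 193 is a description.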

How the results depend on the processing

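The count of 490 DEGs (243 higher and 247 lower) became 256 (107 and 149) with a pseudocount of 1 and 1116 (623 and 493) with the adjusted p alone, since the first shrinks the changes of low genes and the second drops the fold. DEGs with an interaction went from 193 to 98 with a pseudocount of 1. With edgeR on counts there were 530 DEGs, with DESeq2 463, with the 6 PBS libraries fitted alone 417, and with single libraries left out between 461 and 497. Higher genes were 49.6% of DEGs, and 40.5% after median-ratio scaling. The interferon-stimulated count of 82 lay between 76 and 93 over the alternatives, and the cell cycle count of 19 between 18 and 26. Of 1938 values of 97 named genes under the alternatives, 1857 kept their call, 80 lost it, 1 gained it and 0 changed direction. Replicate numbers did not pair the libraries (correlations of same-numbered deviations -0.0579, 0.00127 and -0.0426 over 10555 genes). With the replicate block 445 DEGs were called (217 higher and 228 lower), 434 of them shared with the fit without it, and 6 of the 97 named genes changed their call. Genes with few counts, the interferon ligands among them, were limited by depth.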
